A study of Mus musculus with 16 samples.

Results

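The response of Smpd3-deleted hepatocytes to palmitic acid was read from 8 of the 16 RNA-seq samples of the series: 4 samples of primary mouse hepatocytes given vehicle and 4 given 0.4 mM palmitic acid, both for 24 h. The 8 samples were chosen by their labels alone, as those named HKO. Of 55416 genes listed, 11858 reached at least 1 TPM in at least 4 of the 16 samples and were tested. TPM is a transcript level scaled for gene length and for the total of its sample. Levels are given per sample in the order of the sample numbers, or as the mean ± SD of the 4 samples of a group (n = 4), and log2 fold changes with their standard error (SE). The remaining 8 samples are the FLOX hepatocytes, also 4 with vehicle and 4 with the same dose and time of palmitic acid, and serve to show where the HKO response differed; they also enter the filter and the estimate of residual spread behind the HKO calls. The series asks what SMPD3 does in metabolic dysfunction-associated steatohepatitis (MASH), for which hepatocytes loaded with palmitic acid serve as the culture model.

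HKO cells are Alb-cre+, which places Cre under the albumin promoter so that loxP-flanked Smpd3 is removed in hepatocytes, and FLOX cells are Alb-cre-. Neither the age, sex and strain of the mice nor the make-up of the vehicle is stated in the sources used. Samples carry the numbers 1 to 4 within a group, but the labels do not say whether a number stands for a mouse, a culture or a repeat library, and p-values reflect that spread, possibly technical, and no other. In bulk RNA of this kind, fewer cells of a type and less RNA per cell cannot be told apart.

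Palmitic acid is a saturated fatty acid that hepatocytes either oxidise, under the control of the fatty acid receptor PPAR alpha, or store as triglyceride in lipid droplets coated by perilipins. In excess it makes the membrane of the endoplasmic reticulum (ER) more saturated and feeds the synthesis of ceramide, and the unfolded protein response, through the sensors IRE1, PERK and ATF6, raises the chaperones of that compartment. SMPD3 is a neutral sphingomyelinase, which cleaves sphingomyelin of the inner leaflet of membranes to ceramide and is known for its part in the release of extracellular vesicles.

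The TPM of the listed genes summed to 983215 to 984870 in the HKO vehicle samples and to 977095 to 978817 with palmitic acid. Between 11237 and 11498 genes reached 1 TPM in each of these 8 samples, and the 20 most abundant genes held 27.7% to 28.6% of the total with vehicle and 25.8% to 26.0% with palmitic acid. TPM values keep no read depth, so the precision of each value is known only from the 4 replicates. In a principal component analysis of the 8 HKO samples, the first component, with 42.8% of the variance, held treated and vehicle samples apart without overlap. Hepatocyte markers summed to 62541 to 63842 TPM with vehicle and all 16 of them were tested, whereas 0 of 15 lymphocyte and neutrophil markers were high enough to be tested. Alb, which encodes serum albumin, stood at 23467, 23576, 23757 and 24692 TPM with vehicle.

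Smpd3 itself was low but not absent in HKO cells. Its levels were 4.25, 5.89, 5.54 and 5.46 TPM with vehicle and 7.88, 9.15, 7.82 and 6.44 TPM with palmitic acid, and all 4 treated samples lay above all 4 vehicle samples. Smpd3 rose with palmitic acid by a log2 fold change of 0.49 ± 0.11 (SE; limma adjusted p = 0.0016). Against FLOX cells, the mean level in HKO cells was 16.5% in the vehicle groups and 17.0% in the treated groups, or -2.39 ± 0.11 (SE; limma adjusted p = 7.87e-10) and -2.42 ± 0.11 (SE; limma adjusted p = 1.09e-09) on the log2 scale. FLOX samples stood at 37.1, 29.7, 27.8 and 33.2 TPM with vehicle and 42.5, 47.1, 46.7 and 47.8 TPM with palmitic acid, and no HKO sample came near them. The HKO response minus the FLOX response was -0.03 ± 0.15 (SE; limma adjusted p = 0.987), so a difference in the response of Smpd3 was not detected. Which part of the gene lies between the loxP sites was not stated, and the TPM covers the whole gene.

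Palmitic acid moved a large share of the transcriptome. At a limma adjusted p under 0.05, 3491 of the 11858 genes were higher (29.4%) and 1549 lower (13.1%), and these shares are the background for every list below. Most changes were small: 273 genes changed by at least 1 on the log2 scale, of which 151 were higher (1.27%) and 122 lower (1.03%), while 1077 of the 5040 called genes (21.4%) changed by less than 0.25. All fold changes are on the scale of log2(TPM + 1), which understates changes of genes near or below 1 TPM. The 4 treated and 4 vehicle samples did not overlap for 4875 genes (41.1% of those tested, with 28.7% higher and 12.4% lower), and 644 of the called genes had groups that overlapped.

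The split between rises and falls depended on how samples were scaled. As deposited, the log2 fold changes of the tested genes had a median of 0.11, and 69.3% of the called genes were higher. Dividing each sample by the median ratio of its genes to their means (median-ratio scaling) moved that median to 0.0056 and gave 2103 higher and 2369 lower genes, and quantile normalization gave 2400 and 2228. Gene changes below are therefore to be read against a median of 0.11, and for many lists the counts under median-ratio scaling stand beside those as deposited. Large changes stood far outside this shift, as the plot of level against fold change shows.

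**Figure D1:**
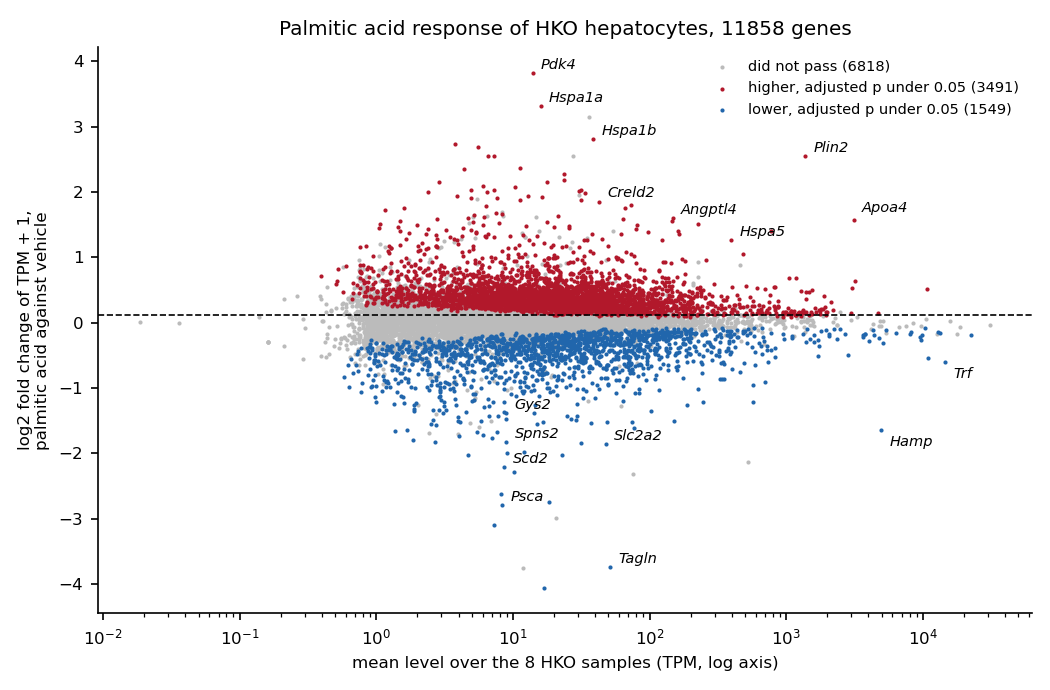
Log2 fold change of TPM + 1 with palmitic acid against vehicle in HKO hepatocytes (vertical axis) by the mean level over the 8 HKO samples (horizontal axis, log scale, TPM), 1 point per gene. Red points are the 3491 genes higher and blue points the 1549 lower at a limma adjusted p under 0.05, grey points did not pass, and the dashed line marks the median of all genes at 0.11; Pdk4 and Plin2 sit at the top and Tagln at the bottom.

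**Figure D2:**
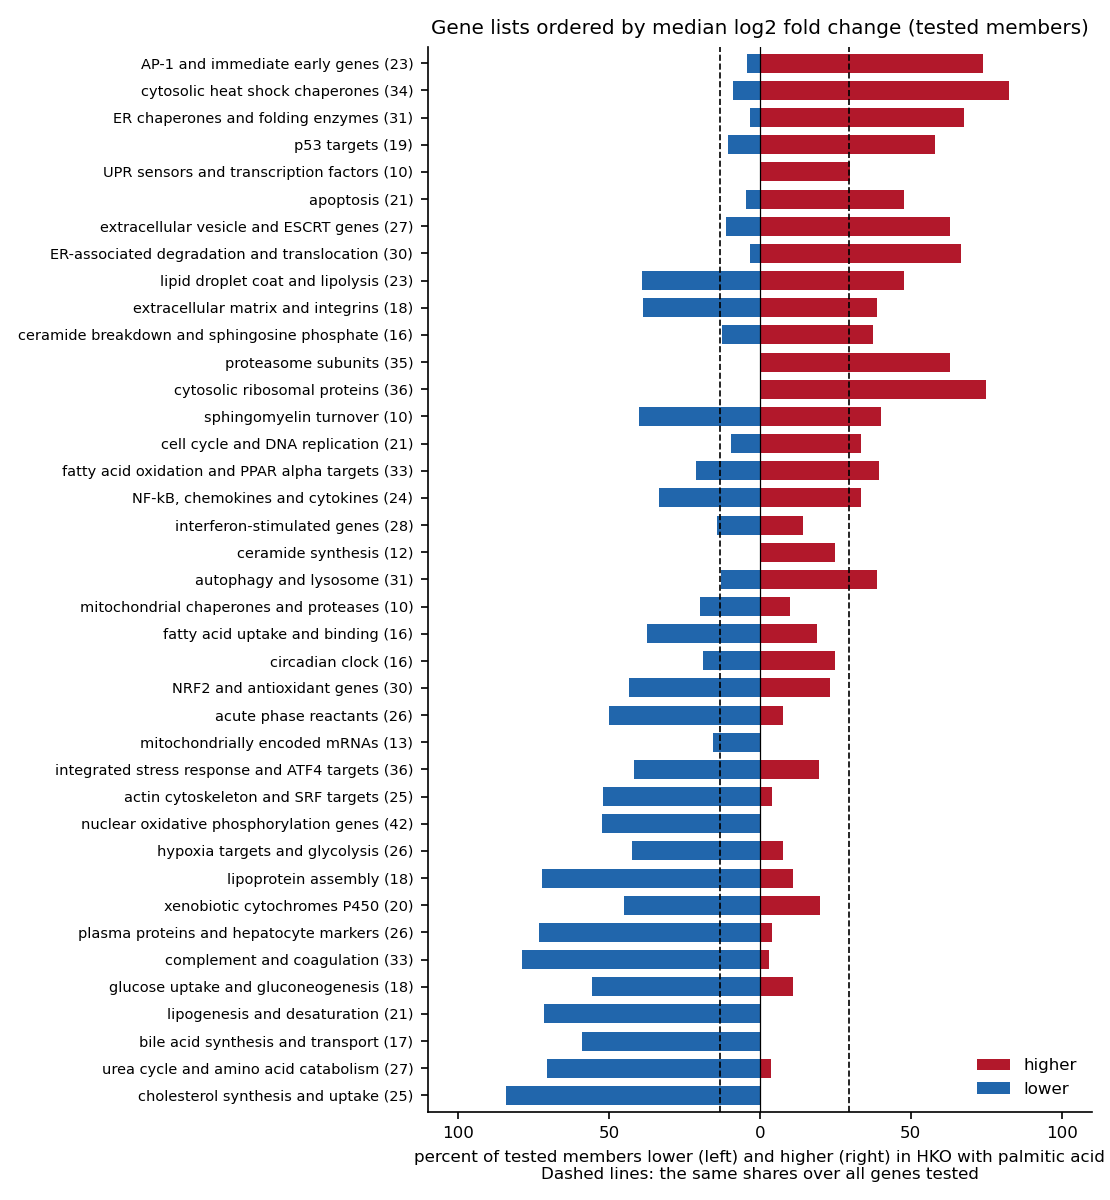
Percent of the tested members of each pathway list with at least 10 tested members that were lower (blue, left) or higher (red, right) with palmitic acid in HKO hepatocytes, with these lists (cell marker lists are not drawn) ordered by median log2 fold change and the number of tested members in brackets. Dashed lines mark the shares over all genes, 13.1% lower and 29.4% higher; AP-1, heat shock and ER chaperone lists stand at the top and cholesterol synthesis, with 0 members higher, at the bottom.

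Among genes of the lipid droplet, a few rose strongly while the list as a whole went both ways. Of 23 tested genes of the droplet coat and of lipolysis, 11 were higher and 9 lower, and under median-ratio scaling the counts were 7 higher and 10 lower. Plin2, the perilipin that coats droplets in most cells, stood at 396, 419, 385 and 400.5 TPM with vehicle and 2229, 2289, 2375 and 2531 TPM with palmitic acid. The treated samples all lay far above the vehicle samples, which differed little among themselves. Plin2 rose 5.89-fold in mean TPM, a log2 fold change of 2.55 ± 0.057 (SE; limma adjusted p = 6.73e-14). Among the genes that rose at least as much, no other reached 100 TPM with palmitic acid.

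Cidec, whose product fuses droplets into larger ones, stood at 26.4, 33.6, 33.8 and 34.5 TPM with vehicle and 109, 117, 118 and 113 TPM with palmitic acid. Cidec rose by 1.81 ± 0.07 (SE; limma adjusted p = 3.59e-11) on the log2 scale, with no treated sample near the vehicle range. Hilpda, an inhibitor of the lipase ATGL that is induced by lipid and by hypoxia, rose from 11.5 ± 1.83 to 49.7 ± 9.25 TPM, a log2 fold change of 2.01 ± 0.15 (SE; limma adjusted p = 3.02e-08). Cidea, a relative of Cidec that is low in healthy liver, rose from 1.305 ± 0.318 to 4.195 ± 0.811 TPM. Lpin2, a phosphatidate phosphatase of triglyceride synthesis, rose from 47.1 ± 4.64 to 98.3 ± 6.46 TPM. Against this direction, Pnpla3, a droplet protein known for its variant in fatty liver, fell from 1.91 ± 0.332 to 0.52 ± 0.07703 TPM, a log2 fold change of -0.93 ± 0.13 (SE; limma adjusted p = 3.25e-05), and was under 1 TPM in all 4 treated samples. Plin5, the perilipin of oxidative tissues, was at 8.102 ± 0.209 TPM with vehicle and 7.27 ± 0.741 TPM with palmitic acid and did not pass (limma adjusted p = 0.107). Pnpla2, which encodes ATGL, rose by only 0.28 ± 0.054 (SE; limma adjusted p = 0.000724), and under median-ratio scaling its change was 0.16 (limma adjusted p = 0.0598).

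Genes of fatty acid oxidation split into a strongly induced set and a larger set that moved little. Of 33 tested members of the oxidation and PPAR alpha list, 13 were higher and 7 lower, with a median log2 fold change of 0.084 against 0.11 over all genes, and 11 higher and 11 lower under median-ratio scaling. Pdk4, the kinase that switches off pyruvate dehydrogenase and so spares glucose when fat is burned, stood at 0.77, 0.96, 1.15 and 0.96 TPM with vehicle and 23.8, 28.9, 23.9 and 30.9 TPM with palmitic acid. Its vehicle samples were all near 1 TPM and its treated samples all above 20 TPM. Pdk4 rose 28.0-fold in mean TPM, a log2 fold change of 3.82 ± 0.17 (SE; limma adjusted p = 1.55e-10), the largest rise of any gene whose groups did not overlap.

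Angptl4, a secreted inhibitor of lipoprotein lipase, rose from 73.2 ± 4.26 to 223 ± 11.6 TPM. Creb3l3, an ER-bound transcription factor of the fasting liver, rose from 87.6 ± 5.51 to 233 ± 8.17 TPM. Acot2, a mitochondrial acyl-CoA thioesterase, rose from 9.76 ± 0.547 to 24.1 ± 0.746 TPM; its close paralog Acot1 was under 2 TPM in every HKO sample, and reads of both could be split between them. Cpt1a, which carries long-chain fatty acids into mitochondria, rose by 0.68 ± 0.11 (SE; limma adjusted p = 0.000106).

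Other genes counted as PPAR alpha targets did not follow. Cyp4a14, a fatty acid hydroxylase often used as a marker of the receptor's activity in mouse liver, was at 3.01 ± 0.256 TPM with vehicle and 2.69 ± 0.184 TPM with palmitic acid and did not pass (limma adjusted p = 0.301). Vnn1, a pantetheinase, fell from 11.5 ± 0.887 to 5.59 ± 0.788 TPM. Among the other pyruvate dehydrogenase kinases, Pdk2 fell by 0.76 ± 0.13 (SE; limma adjusted p = 0.000195), and Pdk1 fell by 0.38 ± 0.11 (SE; limma adjusted p = 0.00964). Of the 16 tested genes of fatty acid uptake and binding, 3 were higher and 6 lower: the transporter Cd36 fell from 5.16 ± 0.364 to 2.697 ± 0.545 TPM, the liver binding protein Fabp1 fell from 632 ± 35.5 to 488 ± 44.4 TPM, and the intestinal binding protein Fabp2 rose from 11.9 ± 1.305 to 22.6 ± 0.646 TPM.

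Genes of cholesterol and fatty acid synthesis mostly fell. Of 25 tested genes of cholesterol synthesis and uptake, 0 were higher and 21 lower (0% and 84.0%, against 29.4% and 13.1% of all genes), with a median of -0.61. Fdps, which makes farnesyl diphosphate, stood at 749, 746, 750.4 and 777 TPM with vehicle and 394, 386, 409 and 362 TPM with palmitic acid. Every treated sample lay below every vehicle sample. Fdps fell by 0.96 ± 0.053 (SE; limma adjusted p = 1.42e-09) on the log2 scale, to 51.3% of the vehicle mean. Sqle, a rate-limiting step of sterol synthesis, fell from 88.1 ± 3.63 to 57.2 ± 3.68 TPM, and Insig1, the sterol-sensing brake on SREBP processing, from 88.95 ± 5.53 to 56.8 ± 2.41 TPM.

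In the list of lipogenesis and desaturation, 0 of 21 tested members were higher and 15 lower. Scd2, a desaturase that puts a double bond into palmitic and stearic acid and is mostly known from brain, stood at 13.6, 16.3, 14.8 and 14.7 TPM with vehicle and 2.73, 2.84, 2.46 and 1.71 TPM with palmitic acid. The groups did not overlap, and palmitic acid left 16.4% of the vehicle mean. Scd2 fell by 2.22 ± 0.11 (SE; limma adjusted p = 4.8e-10) on the log2 scale. Scd1, the main liver desaturase, fell from 424 ± 24.2 to 232 ± 11.9 TPM, a log2 fold change of -0.87 ± 0.082 (SE; limma adjusted p = 6.53e-07). Acss2, which activates acetate for lipid synthesis, fell from 42.97 ± 1.195 to 14.6 ± 0.632 TPM. Fasn, the fatty acid synthase that makes palmitic acid, fell by 0.67 ± 0.067 (SE; limma adjusted p = 1e-06), and Acaca, which makes its malonyl-CoA, fell by 0.92 ± 0.13 (SE; limma adjusted p = 5.6e-05). The transcription factor Srebf1 was at 26.2 ± 0.865 TPM with vehicle and 25.7 ± 1.48 TPM with palmitic acid and did not pass (limma adjusted p = 0.756).

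Most chaperones of the ER rose. Of 31 tested ER chaperones and folding enzymes, 21 were higher and 1 lower (67.7% and 3.23%, against 29.4% and 13.1% of all genes), with a median log2 fold change of 0.28 against 0.11. Under median-ratio scaling the counts were 18 higher and 2 lower. Of 30 tested genes of ER-associated degradation and translocation, 20 were higher and 1 lower, and 11 higher and 1 lower under median-ratio scaling.

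The promoters of 4 members are shown because they hold the ER stress response element, spelled CCAAT, any 9 bases and CCACG (on the reverse strand CGTGG, any 9 bases and ATTGG), in the 250 bases before the annotated start of the gene, and because all 4 genes rose. The sequences are from RefSeq (GRCm38.p6), 5′ to 3′ in the direction of the gene, with each match in capitals. They cover chr2:34771840-34772089, plus strand for Hspa5, chr10:86705445-86705694, minus strand for Hsp90b1, chr15:88819396-88819645, plus strand for Creld2 and chr10:75893148-75893397, plus strand for Derl3.
Hspa5: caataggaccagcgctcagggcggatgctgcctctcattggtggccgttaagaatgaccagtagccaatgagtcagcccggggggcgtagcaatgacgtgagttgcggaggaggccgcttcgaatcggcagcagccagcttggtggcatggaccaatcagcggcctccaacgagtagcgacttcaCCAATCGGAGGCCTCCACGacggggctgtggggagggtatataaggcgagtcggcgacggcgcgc
Hsp90b1: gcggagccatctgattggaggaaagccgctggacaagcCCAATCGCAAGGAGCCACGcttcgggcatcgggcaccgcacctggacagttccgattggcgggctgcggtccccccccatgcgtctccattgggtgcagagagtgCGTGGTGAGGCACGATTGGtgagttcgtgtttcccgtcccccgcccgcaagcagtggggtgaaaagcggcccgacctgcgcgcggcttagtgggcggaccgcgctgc
Creld2: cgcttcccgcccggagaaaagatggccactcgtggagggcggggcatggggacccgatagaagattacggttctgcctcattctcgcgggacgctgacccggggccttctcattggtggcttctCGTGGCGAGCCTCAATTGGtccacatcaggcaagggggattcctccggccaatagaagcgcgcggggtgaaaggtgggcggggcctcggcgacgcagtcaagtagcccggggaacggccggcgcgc
Derl3: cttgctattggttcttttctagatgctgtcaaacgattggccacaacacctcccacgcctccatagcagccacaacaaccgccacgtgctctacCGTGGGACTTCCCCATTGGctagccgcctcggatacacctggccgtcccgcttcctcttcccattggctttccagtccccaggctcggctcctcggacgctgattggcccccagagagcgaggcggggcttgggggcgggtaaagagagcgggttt

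The match in Hspa5 spans the bases 65 to 47 before the start. Hsp90b1 has 2 matches, at 212 to 194 and, on the reverse strand, at 107 to 89 before the start. The matches of Creld2 (126 to 108) and Derl3 (156 to 138) are on the reverse strand. This spelling of the motif occurred in 37 of 32851 promoters of this length (0.113%) and in 17 of the 8887 tested genes matched to a promoter. It was found in 7 of 25 ER chaperones with a promoter (Hspa5, Hsp90b1, Calr, Canx, Pdia6, Dnajc3 and Creld2) and in 2 of 24 genes of ER-associated degradation (Syvn1 and Derl3). Of the 17 genes with it, 12 were higher and 2 lower with palmitic acid, while 29.4% of all tested genes were higher and 13.1% lower. The 17 include the ER list genes just named, all of them higher, so this count is no separate result. Of the others, Hnrnpa3, Alg12 and Zfp57 were higher, Acnat2 and Acacb lower, and the rest did not pass. Other spellings searched in the same windows, on both strands, were met as follows. The core of a second ER stress element, TGACGTG, lay in 3 of the 25 ER chaperones and 1.65% of all promoters. The sterol element TCACCCCAC lay in 1 of 17 cholesterol genes and 0.496% of all promoters, and the antioxidant element TGACNNNGC in 9 of 25 NRF2 genes and 10.2% of all. The PPAR element, AGGTCA repeated after any 1 base, lay in 0 of 26 genes of fatty acid oxidation and 0.0335% of all. List members are tested genes, whose background differs from that of all promoters. Among the 8887 tested genes with a promoter, TGACGTG lay in 245, TCACCCCAC in 64, TGACNNNGC in 1242 and the PPAR element in 5. A match of letters is a description of the promoter and not a measured binding site.

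Hspa5, which encodes BiP, the central chaperone and sensor partner of the ER, stood at 234, 235, 245 and 219 TPM with vehicle and 544, 563, 541 and 590.1 TPM with palmitic acid. All treated samples lay far above all vehicle samples, and the spread within each group was small. Hspa5 rose 2.401-fold, a log2 fold change of 1.26 ± 0.04 (SE; limma adjusted p = 4.2e-12). Creld2, an ER-resident and secreted folding factor, stood at 19.3, 18.8, 16.6 and 17.2 TPM with vehicle and 67.7, 64.3, 64.6 and 73.3 TPM with palmitic acid. Creld2 rose by 1.85 ± 0.068 (SE; limma adjusted p = 2.1e-11), the largest rise in the list, with no overlap.

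Hsp90b1, the ER member of the HSP90 family, rose from 92.4 ± 3.48 to 239 ± 9.67 TPM. Pdia4, a protein disulfide isomerase, rose from 34.3 ± 1.45 to 88.9 ± 2.87 TPM, and Sdf2l1, a partner of BiP, from 10.2 ± 1.61 to 29.7 ± 1.74 TPM. Manf, a secreted survival factor of stressed ER, rose from 72.4 ± 4.46 to 175 ± 18.9 TPM, and Dnajb9, a co-chaperone of BiP induced through IRE1, from 17.3 ± 1.13 to 37.8 ± 3.47 TPM. Calr, calreticulin, rose by only 0.28 ± 0.034 (SE; limma adjusted p = 9.26e-06). Among degradation genes, Derl3, a channel component of the pathway, rose from 2.03 ± 1.58 to 6.63 ± 0.906 TPM; 1 vehicle sample, at 4.38 TPM, lay above the other 3 but below the treated samples. Syvn1, the ubiquitin ligase HRD1, rose from 15.6 ± 1.26 to 23.7 ± 2.56 TPM. Herpud1, a scaffold of the same complex, moved the other way, from 144 ± 5.34 to 119 ± 3.76 TPM, a log2 fold change of -0.28 ± 0.038 (SE; limma adjusted p = 2.47e-05).

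Sensors and transcription factors of the unfolded protein response were higher about as often as all genes. Of 10 tested, 3 were higher and 0 lower (30.0% and 0.0%, against 29.4% and 13.1% of all genes). Under median-ratio scaling the counts were 2 higher and 0 lower. Ddit3, which encodes CHOP, a factor linked to cell death under ER stress, stood at 13.3, 11.4, 13.5 and 13.9 TPM with vehicle and 40.8, 34.4, 29.7 and 48.9 TPM with palmitic acid. Its treated samples were spread more widely than its vehicle samples but none overlapped them. Ddit3 rose by 1.47 ± 0.12 (SE; limma adjusted p = 1.01e-07) on the log2 scale. Xbp1, the target of IRE1 splicing, rose by 0.41 ± 0.054 (SE; limma adjusted p = 1.78e-05) at the gene level. Atf4, the factor translated when PERK phosphorylates eIF2 alpha, rose by 0.15 ± 0.031 (SE; limma adjusted p = 0.000828), a change close to the median of all genes; under median-ratio scaling it was 0.032 (limma adjusted p = 0.583).

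Targets of ATF4 did not move in a single direction. Of 36 tested genes of the integrated stress response, 7 were higher and 15 lower, with a median of -0.11, and 4 higher and 20 lower under median-ratio scaling. Slc7a11, the cystine importer, stood at 7.92, 9.22, 9.73 and 7.78 TPM with vehicle and 22.04, 30.01, 27.6 and 28.9 TPM with palmitic acid. Slc7a11 rose by 1.54 ± 0.15 (SE; limma adjusted p = 1.13e-06), every treated sample lying above the vehicle range. Ppp1r15a, which encodes GADD34 and restores translation, rose from 37.5 ± 3.98 to 76.4 ± 9.14 TPM, and Atf3 from 38.5 ± 2.88 to 63.04 ± 6.597 TPM.

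Psat1, an enzyme of serine synthesis, stood at 135, 146, 141 and 143 TPM with vehicle and 78.2, 78.7, 78.1 and 74.4 TPM with palmitic acid, without overlap. Psat1 fell by 0.86 ± 0.037 (SE; limma adjusted p = 8.85e-11) on the log2 scale. Psph, the last enzyme of serine synthesis, fell from 66.0 ± 7.22 to 33.9 ± 3.21 TPM, and Asns, asparagine synthetase, from 103 ± 2.88 to 71.3 ± 3.44 TPM. Chac1, which degrades glutathione and is a common marker of ATF4 and CHOP, fell by 0.19 ± 0.049 (SE; limma adjusted p = 0.00584). Trib3, a pseudokinase that feeds back on ATF4, was at 39.1, 40.8, 43.1 and 43.6 TPM with vehicle and 48.97, 44.6, 44.3 and 53.7 TPM with palmitic acid and rose by 0.19 ± 0.061 (SE; limma adjusted p = 0.0169), while it stood at -0.22 ± 0.061 (SE; limma adjusted p = 0.0121) in FLOX cells; the difference did not pass (limma adjusted p = 0.0765). The HKO call of Trib3 was lost under median-ratio scaling at 0.075 (limma adjusted p = 0.448), after quantile normalization at 0.094 (limma adjusted p = 0.294), without HKO palmitic acid 4 at 0.14 (limma adjusted p = 0.0573) and without HKO vehicle 1 at 0.17 (limma adjusted p = 0.0576). Gdf15, a secreted stress hormone, was at 104 ± 6.44 TPM with vehicle and 115 ± 8.29 TPM with palmitic acid and did not pass (limma adjusted p = 0.0537). The element bound by ATF4 with C/EBP partners, spelled TGATGNAA and searched on both strands, lay in 9 of the 29 promoters of this list. It lay in 3.45% of all promoters and in 217 of the 8887 tested genes with a promoter. The 9 include Slc7a11 and Atf3, which rose, as well as Asns and Chac1, which fell. The plot of stress list members shows most chaperones on 1 side of 0 and the ATF4 targets on both.

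**Figure D3:**
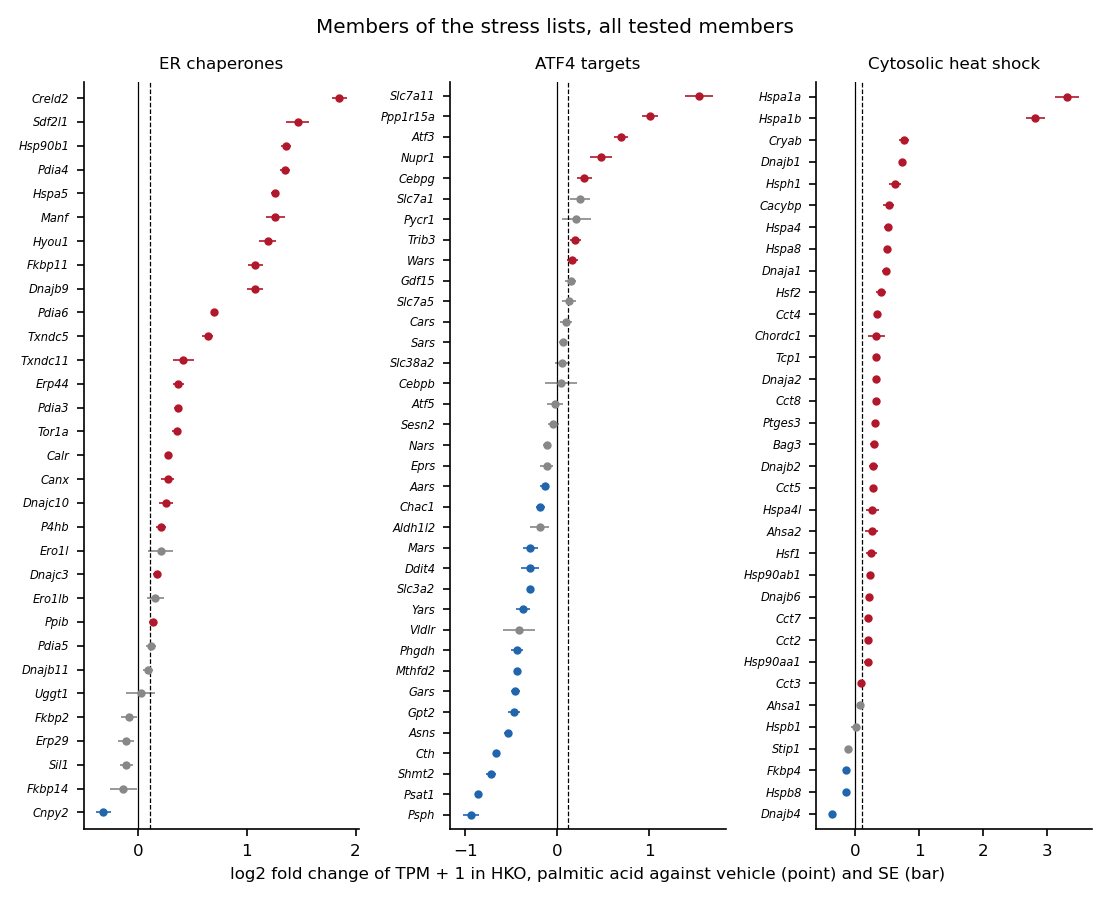
Log2 fold change of TPM + 1 with palmitic acid against vehicle in HKO hepatocytes (point) and its SE (bar) for every tested member of the ER chaperone, ATF4 target and cytosolic heat shock lists. Red and blue mark genes higher and lower at a limma adjusted p under 0.05, grey marks genes that did not pass, the solid line is 0 and the dashed line the median of all genes; Creld2, Slc7a11 and Hspa1a lead their lists and Psph closes the ATF4 targets.

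Most cytosolic heat shock chaperones rose. Of 34 tested members, 28 were higher and 3 lower (82.4% and 8.82%, against 29.4% and 13.1% of all genes), and 19 higher and 4 lower under median-ratio scaling. Hspa1a, an inducible HSP70, stood at 2.75, 2.07, 2.0 and 1.53 TPM with vehicle and 36.7, 31.99, 29.9 and 20.99 TPM with palmitic acid. Hspa1b, its neighbouring copy, stood at 8.41, 9.11, 9.29 and 8.32 TPM with vehicle and 77.7, 77.7, 71.98 and 47.6 TPM with palmitic acid. For both genes the groups lay far apart, and the sample HKO palmitic acid 4 was the lowest of the treated samples. Hspa1a rose by 3.31 ± 0.19 (SE; limma adjusted p = 2.37e-09) on the log2 scale, and Hspa1b by 2.81 ± 0.15 (SE; limma adjusted p = 8.84e-10).

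The copies are nearly identical, so reads may have been split between them and their separate levels are uncertain. The 250 bases before their starts differ at 3 positions (98.8% identical) in RefSeq GRCm38.p6, at chr17:34972157-34972406, minus strand for Hspa1a and chr17:34959239-34959488, minus strand for Hspa1b, and are shown because the genes moved together.
Hspa1a: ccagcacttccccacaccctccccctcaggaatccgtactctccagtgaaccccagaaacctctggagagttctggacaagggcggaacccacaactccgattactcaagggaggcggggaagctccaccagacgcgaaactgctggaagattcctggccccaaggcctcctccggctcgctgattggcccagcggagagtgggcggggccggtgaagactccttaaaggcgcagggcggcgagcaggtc
Hspa1b: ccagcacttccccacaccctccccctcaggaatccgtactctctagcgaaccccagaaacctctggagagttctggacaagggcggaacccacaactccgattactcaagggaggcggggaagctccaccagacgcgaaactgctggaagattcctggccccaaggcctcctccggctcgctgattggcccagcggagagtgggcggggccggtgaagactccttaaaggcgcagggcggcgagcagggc

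Only 1 spelling of the heat shock element was searched on both strands, namely GAA, TTC and GAA with any 2 bases between each. It was not found in these windows, which says nothing of other spellings. This spelling occurred in 0.466% of all promoters and in 40 of the 8887 tested genes with a promoter. Of the 28 heat shock genes with a promoter, 1 held it (Dnajb6). Constitutive chaperones rose by less. Hspa8, the constitutive HSP70, rose from 1281 ± 33.2 to 1808 ± 56.6 TPM, a large addition in TPM at a log2 fold change of 0.50 ± 0.028. Dnajb1, the main HSP40, rose from 16.3 ± 0.142 to 27.7 ± 0.709 TPM, and Hsph1, an exchange factor of HSP70, from 26.4 ± 0.586 to 41.5 ± 5.15 TPM. Cryab, a small heat shock protein, rose from 32.7 ± 0.984 to 56.2 ± 2.65 TPM, and Bag3, of chaperone-assisted autophagy, by 0.30 ± 0.061 (SE; limma adjusted p = 0.00104). Of 10 tested mitochondrial chaperones and proteases, 1 was higher and 2 lower as deposited and 0 higher and 5 lower under median-ratio scaling, and Hspd1, the mitochondrial HSP60, did not pass at 288 ± 8.24 TPM with vehicle and 303 ± 10.2 TPM with palmitic acid (limma adjusted p = 0.14).

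Proteasome subunits and cytosolic ribosomal proteins were higher as deposited but by about the median of all genes. Of 35 tested proteasome genes, 22 were higher and 0 lower, with a median of 0.14, and under median-ratio scaling 7 higher and 2 lower. Of 36 tested ribosomal protein genes, 27 were higher and 0 lower, with a median of 0.13, and 0 passed in either direction under median-ratio scaling. How many members of these 2 lists passed thus depended on the scaling. Psmd7, of the proteasome lid, had the largest rise of its list at 0.32 ± 0.035 (SE; limma adjusted p = 2.76e-06).

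Many genes of secreted hepatocyte proteins fell, mostly by modest amounts. Of 33 tested complement and coagulation genes, 1 was higher and 26 lower (3.03% and 78.8%), with a median of -0.24. Of 26 tested plasma proteins and hepatocyte markers, 1 was higher and 19 lower, and of 26 acute phase reactants, 2 were higher and 13 lower. The 16 hepatocyte markers, whose sum with vehicle is given above, summed to 48424 to 49908 TPM with palmitic acid, and 2 of them were higher and 12 lower.

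Hamp, which encodes the iron hormone hepcidin, stood at 8026, 7474, 7217 and 7144 TPM with vehicle and 2677, 2478, 2854 and 1732 TPM with palmitic acid. The treated samples were all far below the vehicle samples, and HKO palmitic acid 4 was the lowest of them. Hamp fell by 1.64 ± 0.16 (SE; limma adjusted p = 7.63e-07) on the log2 scale. Trf, the iron carrier transferrin and among the most abundant mRNAs, stood at 16934, 18143, 18059 and 16829 TPM with vehicle and 12049, 11930.0, 11462 and 10706 TPM with palmitic acid. Trf fell by 0.60 ± 0.04 (SE; limma adjusted p = 1.31e-08) without overlap.

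Alb fell from 23873 ± 559 to 20893 ± 354 TPM, a change that quantile normalization set to 0, since Alb held the same rank in all 8 HKO samples, and Gc, the vitamin D binding protein, from 3340.0 ± 97.6 to 2369 ± 72.4 TPM. Hc, complement C5, fell by 0.43 ± 0.064 (SE; limma adjusted p = 6.72e-05), F2, prothrombin, fell by 0.23 ± 0.034 (SE; limma adjusted p = 7.23e-05), and Crp, C-reactive protein, fell by 0.69 ± 0.088 (SE; limma adjusted p = 1.3e-05). Saa1, the serum amyloid of the acute phase, was at 1565 ± 108 TPM with vehicle and 1580.1 ± 108 TPM with palmitic acid and did not pass (limma adjusted p = 0.876). A few secreted proteins rose: Apcs, serum amyloid P, from 118 ± 2.23 to 174 ± 13.5 TPM, and Serpind1, heparin cofactor II, from 18.5 ± 1.19 to 29.3 ± 1.08 TPM. The hepatocyte transcription factor Hnf4a fell by 0.22 ± 0.067 (SE; limma adjusted p = 0.0171); without HKO palmitic acid 4 its change was -0.17 (limma adjusted p = 0.0586) and without HKO vehicle 2 -0.18 (limma adjusted p = 0.0543).

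Of 18 tested lipoprotein genes, 2 were higher and 13 lower. Apoa4, an apolipoprotein of triglyceride-rich particles that liver makes when it holds fat, stood at 1444, 1631, 1650.1 and 1573 TPM with vehicle and 4925, 4722, 4671 and 4391 TPM with palmitic acid. Apoa4 rose by 1.57 ± 0.061 (SE; limma adjusted p = 3.4e-11), and no treated sample came near the vehicle range. Apoa1, the main apolipoprotein of high-density lipoprotein, fell from 12974 ± 275 to 8934 ± 340.3 TPM. Apob, the scaffold of very-low-density lipoprotein, fell by 0.22 ± 0.063 (SE; limma adjusted p = 0.0104), or -0.17 (limma adjusted p = 0.0553) after quantile normalization, while Mttp, the transfer protein that loads it, was at 34.8 ± 2.13 TPM with vehicle and 36.2 ± 2.02 TPM with palmitic acid and did not pass (limma adjusted p = 0.571).

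Genes of glucose handling held some of the largest falls. Of 18 tested genes of glucose uptake and gluconeogenesis, 2 were higher and 10 lower. Slc2a2, the GLUT2 transporter of hepatocytes, stood at 77.8, 69.4, 80.3 and 74.97 TPM with vehicle and 22.98, 22.1, 18.3 and 17.2 TPM with palmitic acid. Vehicle and treated samples were widely separated, with 26.7% of the vehicle mean left. Slc2a2 fell by 1.86 ± 0.099 (SE; limma adjusted p = 9.33e-10) on the log2 scale.

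Gys2, the liver glycogen synthase, fell from 13.3 ± 1.05 to 4.51 ± 0.667 TPM, Slc37a4, the glucose-6-phosphate transporter, from 43.7 ± 0.348 to 21.1 ± 0.797 TPM, and Pklr, the liver pyruvate kinase, from 498 ± 59.9 to 304 ± 34.1 TPM. Pck1, the entry enzyme of gluconeogenesis, was at 0.94, 1.18, 1.03 and 0.83 TPM with vehicle and 3.24, 1.93, 2.59 and 6.87 TPM with palmitic acid and rose by 1.12 ± 0.22 (SE; limma adjusted p = 0.000785); HKO palmitic acid 4 was the highest of the treated samples. G6pc, the last enzyme of glucose release, was at or below 2.0 TPM in every HKO sample and rose by 0.51 ± 0.17 (SE; limma adjusted p = 0.0265); the call was lost without HKO palmitic acid 4, at 0.37 (limma adjusted p = 0.0926), without HKO vehicle 2, at 0.50 (limma adjusted p = 0.0517), and without HKO vehicle 4, at 0.46 (limma adjusted p = 0.0727). It was also lost at the same fold change with a replicate block (limma adjusted p = 0.0606) and without a filter on low genes (limma adjusted p = 0.0545). Of 26 hypoxia and glycolysis genes, 2 were higher and 11 lower as deposited and 2 higher and 15 lower under median-ratio scaling.

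Genes of the urea cycle and of bile acid synthesis fell more often than they rose. Of 27 tested genes of the urea cycle and amino acid breakdown, 1 was higher and 19 lower, with a median of -0.39. Cps1, the entry enzyme of the urea cycle, fell from 45.6 ± 4.09 to 28.3 ± 0.884 TPM, Ass1 from 371 ± 10.03 to 277 ± 12.9 TPM and Haao, of tryptophan breakdown, from 33.5 ± 3.09 to 18.3 ± 1.31 TPM. The exception was Glul, glutamine synthetase, which rose from 19.0 ± 0.852 to 47.3 ± 3.61 TPM, a log2 fold change of 1.27 ± 0.077 (SE; limma adjusted p = 4.64e-09). Of 17 tested bile acid genes, 0 were higher and 10 lower; Cyp7a1, the rate-limiting enzyme of the classic pathway, was at or below 0.04 TPM in every HKO sample and was not tested. Cyp39a1, an oxysterol hydroxylase, fell from 13.5 ± 0.173 to 5.84 ± 0.268 TPM, Baat, which conjugates bile acids, from 25.4 ± 1.63 to 11.7 ± 0.641 TPM, and Slc51b, a subunit of the basolateral exporter, from 9.78 ± 1.11 to 3.54 ± 1.27 TPM.

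Of 20 tested xenobiotic cytochromes P450, 4 were higher and 9 lower. Cyp2c70, which makes the muricholic acids of mice, stood at 781, 831, 789.5 and 807 TPM with vehicle and 338, 345, 353 and 344 TPM with palmitic acid. Cyp2c70 fell by 1.21 ± 0.027 (SE; limma adjusted p = 6.73e-14) on the log2 scale, with little spread in either group. Cyp2b10, a target of the receptor CAR, fell from 65.5 ± 4.53 to 33.2 ± 3.22 TPM, whereas Cyp2e1, of ethanol metabolism, rose from 58.8 ± 2.47 to 76.9 ± 7.003 TPM and Cyp3a25 from 18.7 ± 0.452 to 30.02 ± 1.72 TPM. Of 42 nuclear genes of oxidative phosphorylation, 0 were higher and 22 lower as deposited, with a median of -0.12, and 0 higher and 32 lower under median-ratio scaling. Of the 13 mitochondrially encoded mRNAs, 0 were higher and 2 lower, and 0 higher and 7 lower under median-ratio scaling.

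The sphingolipid genes changed at a few points of the pathway. Of 10 tested genes of sphingomyelin turnover, 4 were higher and 4 lower, Smpd3 among the higher, and 2 higher and 4 lower under median-ratio scaling. The sphingomyelinase gene Smpd1, of the lysosomal acid enzyme, fell from 28.03 ± 0.908 to 22.5 ± 2.51 TPM, and Smpd2, of a neutral one, from 19.6 ± 1.87 to 14.2 ± 1.998 TPM. Of 12 tested genes of ceramide synthesis, 3 were higher and 0 lower as deposited and 0 higher and 1 lower under median-ratio scaling. Sptlc2, a subunit of the serine palmitoyltransferase that uses palmitoyl-CoA, was at 81.8 ± 4.37 TPM with vehicle and 83.2 ± 4.79 TPM with palmitic acid and did not pass (limma adjusted p = 0.786), and Cers6, the ceramide synthase that prefers palmitoyl chains, did not pass at 7.83 ± 0.884 TPM with vehicle and 7.48 ± 1.23 TPM with palmitic acid (limma adjusted p = 0.777).

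Of 16 tested genes of ceramide breakdown and sphingosine phosphate, 6 were higher and 2 lower as deposited and 6 higher and 4 lower under median-ratio scaling. Spns2, which exports sphingosine 1-phosphate, stood at 13.8, 14.3, 14.7 and 15.3 TPM with vehicle and 3.51, 3.5, 3.44 and 3.05 TPM with palmitic acid. The groups did not overlap, and palmitic acid left 23.2% of the vehicle mean. Spns2 fell by 1.83 ± 0.081 (SE; limma adjusted p = 1.24e-10) on the log2 scale. Sphk1, which makes sphingosine 1-phosphate, rose from 11.05 ± 1.04 to 22.6 ± 3.08 TPM, a log2 fold change of 0.96 ± 0.13 (SE; limma adjusted p = 1.8e-05). Sgpl1, the lyase that breaks it down, rose from 20.1 ± 2.08 to 34.1 ± 1.91 TPM, and Ugcg, which turns ceramide into glucosylceramide, from 14.2 ± 0.446 to 25.1 ± 1.79 TPM. Asah1, the acid ceramidase, did not pass at 57.4 ± 1.96 TPM with vehicle and 55.8 ± 2.27 TPM with palmitic acid (limma adjusted p = 0.593).

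Of 27 tested genes of extracellular vesicles and the ESCRT machinery, 17 were higher and 3 lower (62.96% and 11.1%), and 12 higher and 6 lower under median-ratio scaling. Rab31, a small GTPase of endosomes, rose from 30.05 ± 1.297 to 57.98 ± 3.44 TPM, and the tetraspanin Cd9 rose from 64.1 ± 1.96 to 92.8 ± 5.32 TPM. Cd63, a tetraspanin of multivesicular bodies, went up from 445 ± 13.1 to 526 ± 13.5 TPM. Pdcd6ip, which encodes ALIX, did not pass at 89.6 ± 3.48 TPM with vehicle and 90.7 ± 5.4 TPM with palmitic acid (limma adjusted p = 0.873). Of 31 autophagy and lysosome genes, 12 were higher and 4 lower as deposited and 6 higher and 11 lower under median-ratio scaling, against 9 higher and 8 lower after quantile normalization. Sqstm1, the autophagy receptor p62 and also an NRF2 target, rose from 801 ± 18.7 to 1292 ± 62.96 TPM.

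Of 30 tested NRF2 and antioxidant genes, 7 were higher and 13 lower as deposited and 4 higher and 18 lower under median-ratio scaling. Srxn1, sulfiredoxin, rose from 174 ± 6.91 to 342 ± 45.5 TPM, whereas Gsta3, a glutathione transferase, fell from 142 ± 6.77 to 80.6 ± 2.57 TPM and Prdx6, a peroxiredoxin, from 572 ± 42.8 to 339.6 ± 20.5 TPM. Nqo1, a common marker of NRF2, was at 10 ± 0.412 TPM with vehicle and 9.71 ± 0.716 TPM with palmitic acid and did not pass (limma adjusted p = 0.625).

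Most AP-1 and immediate early genes rose. Of 23 tested AP-1 and immediate early genes, 17 were higher and 1 lower (73.9% and 4.35%), and 14 higher and 2 lower under median-ratio scaling. Fosl1, which encodes the AP-1 subunit FRA-1, stood at 10.98, 14.6, 12.8 and 13.4 TPM with vehicle and 48.5, 51.04, 49.04 and 50.7 TPM with palmitic acid. All treated samples were several times above all vehicle samples. Fosl1 rose by 1.87 ± 0.13 (SE; limma adjusted p = 1.7e-08) on the log2 scale. Dusp5, a phosphatase that switches off ERK, rose from 25.6 ± 0.975 to 63.7 ± 5.09 TPM. Its relative Dusp4 rose from 6.38 ± 0.654 to 15.7 ± 0.6098 TPM. Fos fell by 0.55 ± 0.098 (SE; limma adjusted p = 0.000357), and Jun rose by 0.43 ± 0.054 (SE; limma adjusted p = 1.31e-05).

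Of 19 p53 targets, 11 were higher and 2 lower as deposited and 10 higher and 5 lower under median-ratio scaling, and of 21 apoptosis genes, 10 were higher and 1 lower. Gadd45a, a growth arrest gene, rose from 54.9 ± 2.57 to 105 ± 16.4 TPM, and Cdkn1a, the p21 inhibitor, by 0.24 ± 0.035 (SE; limma adjusted p = 6.83e-05). Cflar, which blocks caspase 8 at death receptors, rose by 0.56 ± 0.12 (SE; limma adjusted p = 0.00147), and Mcl1, a survival factor of mitochondria, rose by 0.53 ± 0.068 (SE; limma adjusted p = 1.57e-05). Fas, a death receptor, fell by 0.53 ± 0.16 (SE; limma adjusted p = 0.013).

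Inflammatory genes did not move in one direction. Of 24 tested NF-kB, chemokine and cytokine genes, 8 were higher and 8 lower. Csf1, the growth factor of macrophages, stood at 51.7, 62.3, 59.6 and 51.5 TPM with vehicle and 22.2, 20.8, 17.7 and 14.6 TPM with palmitic acid. Csf1 fell by 1.54 ± 0.10 (SE; limma adjusted p = 1.35e-08), without overlap. Ccl2, a monocyte chemokine, fell from 375 ± 13.2 to 267 ± 52.6 TPM. Cxcl1, a chemokine of neutrophils, rose from 83.0 ± 3.805 to 109.6 ± 12.2 TPM, and Lif, a cytokine of the interleukin 6 family, from 5.33 ± 0.691 to 13.1 ± 2.13 TPM. Il6, Il1b and Tnf were at or below 0.08 TPM in every HKO sample.

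The sum of the macrophage markers was higher with palmitic acid, while its defining members were low throughout. The 15 markers summed to 102 to 114 TPM with vehicle and to 201 to 240.2 TPM with palmitic acid, and 2 of 15 were high enough to be tested, both higher: Cd14, from 42.2 ± 1.28 to 121 ± 7.88 TPM, and Cd68, from 62.4 ± 3.78 to 89.1 ± 11.9 TPM. Of the defining markers, Adgre1 was at most 0.08 TPM in any HKO sample, C1qa 0.44 TPM, Clec4f 0.47 TPM and Csf1r 1.37 TPM, the last in HKO vehicle 3. Of 28 interferon-stimulated genes, 4 were higher and 4 lower as deposited and 3 higher and 6 lower under median-ratio scaling; Cxcl10 rose from 2.79 ± 0.907 to 7.44 ± 1.59 TPM and Isg15 did not pass at 18.9 ± 4.55 TPM with vehicle and 24.04 ± 3.98 TPM with palmitic acid (limma adjusted p = 0.161).

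Actin cytoskeleton genes included the largest fall with non-overlapping groups. Of 25 tested actin and SRF target genes, 1 was higher and 13 lower as deposited and 1 higher and 17 lower under median-ratio scaling. Tagln, an actin-binding protein of contractile cells also called SM22, stood at 94.3, 96.3, 90.5 and 106 TPM with vehicle and 8.73, 6.2, 6.87 and 4.21 TPM with palmitic acid. The treated samples held 6.71% of the vehicle mean. Tagln fell by 3.74 ± 0.15 (SE; limma adjusted p = 4.72e-11) on the log2 scale. Tpm2, a tropomyosin, fell from 71.99 ± 3.805 to 24.9 ± 6.08 TPM, Cnn2, a calponin, from 11.9 ± 0.732 to 3.77 ± 0.599 TPM, and Actb, beta actin, from 4398 ± 124 to 3634 ± 221 TPM. The YAP and SRF target Ankrd1 fell from 57.1 ± 1.51 to 28.5 ± 6.48 TPM.

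The 14 stellate cell and fibroblast markers, Tagln among them, summed to 105 to 122 TPM with vehicle and to 44.96 to 48.1 TPM with palmitic acid. Their defining members were near 0 throughout: in every HKO sample Lrat was at most 0.02 TPM, Pdgfrb 0.03 TPM, Col1a1 0.12 TPM and Dcn 0.4 TPM. Ecm1, the other tested member, rose from 13.4 ± 0.966 to 38.3 ± 1.36 TPM. Of 18 tested matrix and integrin genes, 7 were higher and 7 lower as deposited and 5 higher and 7 lower under median-ratio scaling: Itga3, an integrin chain that binds laminin, rose from 24.7 ± 1.05 to 52.6 ± 3.42 TPM and Lama5, a laminin chain, fell from 4.95 ± 0.402 to 2.005 ± 0.801 TPM.

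Cholangiocyte markers were divided, and the 10 of them summed to 497 to 523 TPM with vehicle and 630.1 to 679 TPM with palmitic acid. Sox9, a biliary and progenitor factor, rose from 22.9 ± 0.605 to 35.8 ± 2.95 TPM and Cldn4, a tight junction protein, from 189.7 ± 2.96 to 278 ± 11.9 TPM. The biliary keratin Krt19 fell from 11.9 ± 1.17 to 5.39 ± 0.929 TPM. Its partner Krt7 fell from 1.17 ± 0.0544 to 0.095 ± 0.0719 TPM. Endothelial markers summed to 12.5 to 14.3 TPM and 11.9 to 15.8 TPM in the same order, and erythroid markers to 22.5 to 24.5 TPM and 21.1 to 22.7 TPM. What part a change in other cells has in these values was not tested.

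Of 21 tested cell cycle genes, 7 were higher and 2 lower as deposited and 3 higher and 4 lower under median-ratio scaling. Myc rose from 71.1 ± 1.44 to 116 ± 11.4 TPM and Cdt1, which licenses replication origins, from 8.54 ± 0.4799 to 14.8 ± 1.57 TPM, while Ccnd1, cyclin D1, fell from 2.54 ± 0.314 to 0.90 ± 0.255 TPM. Of 16 clock genes, 4 were higher and 3 lower as deposited and 2 higher and 8 lower under median-ratio scaling; the repressor Nr1d1 rose from 3.65 ± 0.559 to 8.24 ± 1.02 TPM and the output factor Hlf fell from 2.77 ± 1.66 to 0.80 ± 0.159 TPM, with HKO vehicle 1 the highest of its group at 5.19 TPM.

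Several of the largest responders belong to none of these lists. Hmga2, a chromatin protein of embryonic and growing cells, stood at 1.16, 1.73, 1.81 and 1.08 TPM with vehicle and 12.7, 13.2, 12.8 and 13.99 TPM with palmitic acid. Dppa3, a gene known from germ cells and early embryos, stood at 0.49, 1.22, 0.57 and 0.79 TPM with vehicle and 8.82, 9.84, 10.2 and 12.3 TPM with palmitic acid. For both, the vehicle samples were under 2 TPM and the treated samples above 8 TPM. Hmga2 rose by 2.55 ± 0.12 (SE; limma adjusted p = 1.9e-10) and Dppa3 by 2.69 ± 0.13 (SE; limma adjusted p = 4.96e-10).

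Npy, the appetite neuropeptide, rose from 2.98 ± 0.584 to 19.5 ± 2.85 TPM, and Irx3, a homeobox factor, from 1.32 ± 0.209 to 8.53 ± 1.26 TPM. Tnfrsf23, a mouse decoy receptor for TRAIL, rose from 11.7 ± 0.584 to 51.4 ± 4.901 TPM. Its neighbour Tnfrsf22 rose from 6.04 ± 1.84 to 29.5 ± 1.99 TPM, though their similar sequences could have shared reads. Gtpbp4-ps1 also ranked among the 12 largest rises, at 2.35 ± 0.45, but it is a pseudogene whose reads may come from its parent gene.

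Among the largest falls, Psca, a surface antigen of epithelia, stood at 16.8, 16.6, 14.2 and 13.7 TPM with vehicle and 1.31, 0.90, 1.77 and 1.47 TPM with palmitic acid, and Bex3, an adaptor of nerve growth factor signalling, at 33.8, 31.1, 32.01 and 32.6 TPM with vehicle and 5.46, 5.14, 3.47 and 2.47 TPM with palmitic acid. Psca fell by 2.79 ± 0.11 (SE; limma adjusted p = 3.47e-11) and Bex3 fell by 2.74 ± 0.15 (SE; limma adjusted p = 1.29e-09), both without overlap. Akr1c14, a steroid reductase, fell from 37.2 ± 1.54 to 8.43 ± 1.23 TPM, Adra1b, the alpha adrenergic receptor of hepatocytes, from 19.98 ± 1.85 to 4.32 ± 0.653 TPM, Car14, a carbonic anhydrase, from 17.4 ± 1.58 to 2.83 ± 0.745 TPM and S100a4, a calcium-binding protein of motile cells, from 49.2 ± 5.06 to 13.8 ± 5.07 TPM. Outside the rule for naming genes and chosen after their values were seen, Erfe, the hormone erythroferrone that lowers hepcidin, rose from 2.29 ± 0.378 to 12.4 ± 1.07 TPM, and Id1, a target of the BMP signal that raises hepcidin, fell from 116 ± 1.31 to 38.5 ± 11.01 TPM. Whether the changes of Erfe and Id1 bear on that of Hamp was not tested.

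Of 11858 tested genes, 42 were under 1 TPM in all 4 vehicle samples and at 1 TPM or more in all 4 treated samples. The reverse held for 39 genes. The level of 1 TPM is also that of the filter, which such genes could pass through their high group alone. Some crossed it by little. Cdc7 stood at 0.95, 0.9, 0.89 and 0.95 TPM with vehicle and 1.1, 1.36, 1.21 and 1.42 TPM with palmitic acid. Cdc7 did not pass (limma adjusted p = 0.0594). Fosb, an AP-1 subunit, was among the 42 genes, and Pnpla3, Krt7 and Hlf were among the 39.

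Most of the large changes were also present in FLOX cells. Of the 273 genes changed by at least 1 in HKO cells, 241 also passed in the same direction in FLOX cells, 7 had a change of the opposite sign and 0 passed in the opposite direction. In FLOX cells 23% of all genes tested were higher and 11.5% lower. The fold changes of the genotypes share no sample, but their calls share 1 estimate of residual spread. Genes called in HKO and not in FLOX numbered 1673, but a call in only 1 genotype is no difference, and 1 of these 1673, Atf4, passed the test of the difference itself. Trib3 and C4a, the latter outside the rule for naming genes, passed in both genotypes with opposite signs, and neither passed the test of the difference. The plot of levels by sample shows 16 of the genes in all 4 groups.

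**Figure D4:**
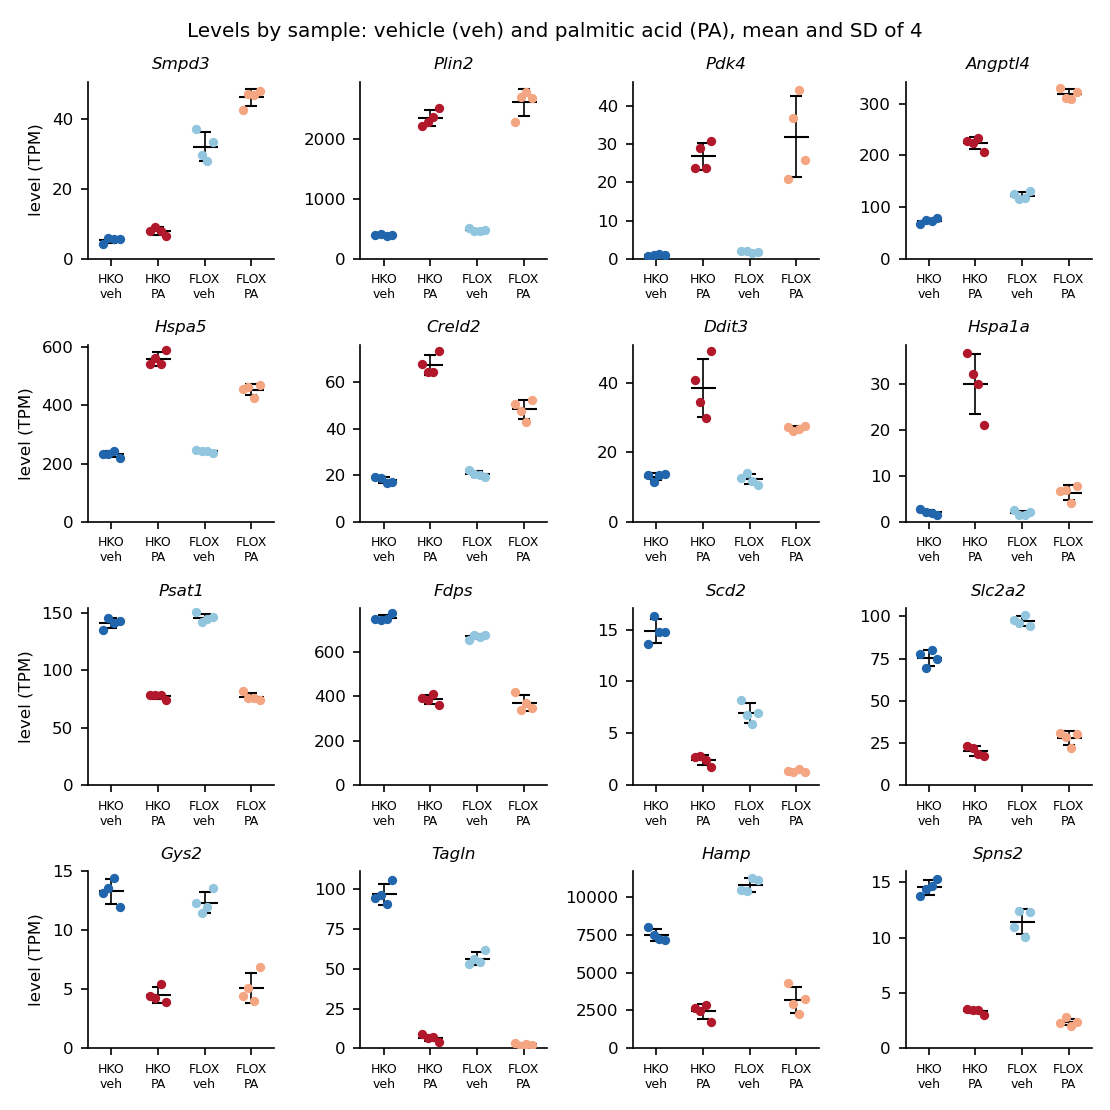
Level in TPM of 16 genes in each of the 16 samples (points), with the mean and SD of each group of 4 (bars): HKO vehicle, HKO palmitic acid, FLOX vehicle and FLOX palmitic acid. Vertical axes start at 0 and differ between panels; Plin2, Pdk4 and Angptl4 rose and Psat1, Fdps, Slc2a2, Gys2 and Hamp fell in both genotypes, while Hspa1a with palmitic acid was above 20 TPM in HKO and below 10 TPM in FLOX samples.

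Both FLOX samples numbered 1 stood apart. On the third principal component of all 16 samples, with 7.53% of the variance, FLOX vehicle 1 and FLOX palmitic acid 1 lay at opposite ends, at 16.1 and -19.0, each beyond the other 3 samples of its group. The difference in response between genotypes is therefore given with and without them.

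The difference in response, HKO minus FLOX, passed at a limma adjusted p under 0.05 for 23 genes (0.194% of those tested): 18 higher (0.152%) and 5 lower (0.0422%). At an unadjusted p under 0.05 there were 893. Without both FLOX samples numbered 1, 10 genes were higher and 10 lower, and 10 of these 20 genes were among the 23 (Hspa1a, Hspa1b, Hspa5, Hsp90b1, Creld2, Cyp2a5, Igfbp1, Trim27, Col12a1 and Sult1e1). The counts were 5 higher and 4 lower under median-ratio scaling and 4 and 1 without a mean-variance trend, so the length of the list depends on the fit.

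The genes of the difference include chaperones of the cytosol. Hspa1a, given above for HKO cells, stood in FLOX cells at 2.48, 1.49, 1.53 and 2.18 TPM with vehicle and at 6.7, 7.0, 4.01 and 7.7 TPM with palmitic acid. The treated FLOX samples overlapped no FLOX vehicle sample and lay below every treated HKO sample. The FLOX change was 1.32 ± 0.19, and the difference was 1.99 ± 0.27 (SE; limma adjusted p = 0.0115) for Hspa1a and 1.65 ± 0.21 (SE; limma adjusted p = 0.011) for Hspa1b. Both passed in all 26 alternative fits, as did Cyp2a5 and no other of the 23 genes. Hspa8 differed by 0.23 ± 0.04 (SE; limma adjusted p = 0.0344) and Dnajb1 by 0.31 ± 0.057 (SE; limma adjusted p = 0.0394), but passed in 8 and 5 of the 26 fits.

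The 23 also include 4 ER chaperones. Creld2 stood in FLOX cells at 22.2, 20.5, 20.2 and 19.4 TPM with vehicle and 50.8, 47.6, 42.9 and 52.2 TPM with palmitic acid, a rise in both genotypes that was larger in HKO cells. The difference was 0.66 ± 0.096 (SE; limma adjusted p = 0.0115) for Creld2, 0.43 ± 0.066 (SE; limma adjusted p = 0.015) for Hsp90b1, 0.36 ± 0.056 (SE; limma adjusted p = 0.015) for Hspa5 and 0.36 ± 0.068 (SE; limma adjusted p = 0.0497) for Pdia4. They passed in 25, 24, 23 and 4 of the 26 fits. Of the 31 tested ER chaperones, 21 had a larger log2 fold change in HKO than in FLOX cells, as did 54.3% of all genes. The median difference of these chaperones was 0.087, against 0.015 over all genes. The log2 fold change was also larger for 28 of 34 cytosolic heat shock chaperones and 19 of 23 AP-1 and immediate early genes. It was larger for 27 of 36 ATF4 targets too, but values were compared with their sign, so a smaller fall counts as larger. Of these ATF4 targets, 7 were higher and 15 lower in HKO cells, against 5 and 18 in FLOX cells. A larger signed log2 fold change was not particular to the stress lists. It was also met in 24 of 35 proteasome genes, 17 of 24 NF-kB, chemokine and cytokine genes and 15 of 20 xenobiotic cytochromes P450. Other lists went the other way, such as cholesterol synthesis and uptake with 2 of 25 and nuclear oxidative phosphorylation with 12 of 42. Atf4 was also among the 23, with a change of 0.15 ± 0.031 in HKO and -0.074 ± 0.031 in FLOX cells, and passed in 6 of the 26 fits.

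Genes outside the chaperone lists were also among the 23. Cyp2a5, a cytochrome of nicotine and coumarin metabolism, fell by less in HKO cells (-0.23 ± 0.055) than in FLOX cells (-0.77 ± 0.055), a difference of 0.53 ± 0.077 (SE; limma adjusted p = 0.0115). Hmox1, heme oxygenase, was at 361, 350.5, 369 and 408 TPM with vehicle and 392, 349, 359.9 and 387 TPM with palmitic acid in HKO cells and showed no call there (limma adjusted p = 0.996), against -0.44 ± 0.052 in FLOX cells, a difference of 0.44 ± 0.073 (SE; limma adjusted p = 0.0304). Igfbp1, a binding protein of insulin-like growth factors, did not pass in HKO cells at 485 ± 11.7 TPM with vehicle and 486 ± 12.2 TPM with palmitic acid (limma adjusted p = 0.959) and changed by -0.32 ± 0.033 in FLOX cells, a difference of 0.33 ± 0.047 (SE; limma adjusted p = 0.0115). Hmox1 passed in 13 and Igfbp1 in 22 of the 26 fits.

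In the other direction, Sult1e1, the estrogen sulfotransferase, rose by 1.09 ± 0.073 in HKO and 1.79 ± 0.073 in FLOX cells, a difference of -0.70 ± 0.10 (SE; limma adjusted p = 0.0122). Col12a1, a collagen, fell from 45.2 ± 4.27 to 19.6 ± 0.662 TPM in HKO cells, and its difference was -0.66 ± 0.11 (SE; limma adjusted p = 0.0344). Gckr had a difference of -0.46 ± 0.085 (SE; limma adjusted p = 0.0386), Tmem37 of -0.32 ± 0.059 (SE; limma adjusted p = 0.042), and Fah, of tyrosine breakdown, of -0.30 ± 0.053 (SE; limma adjusted p = 0.0344). Sult1e1 passed in 25, Col12a1 in 12, Gckr and Fah in 9 and Tmem37 in 6 of the 26 fits. Smpd3, Plin2, Pdk4, Spns2 and Tagln were not among the 23.

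**Figure D5:**
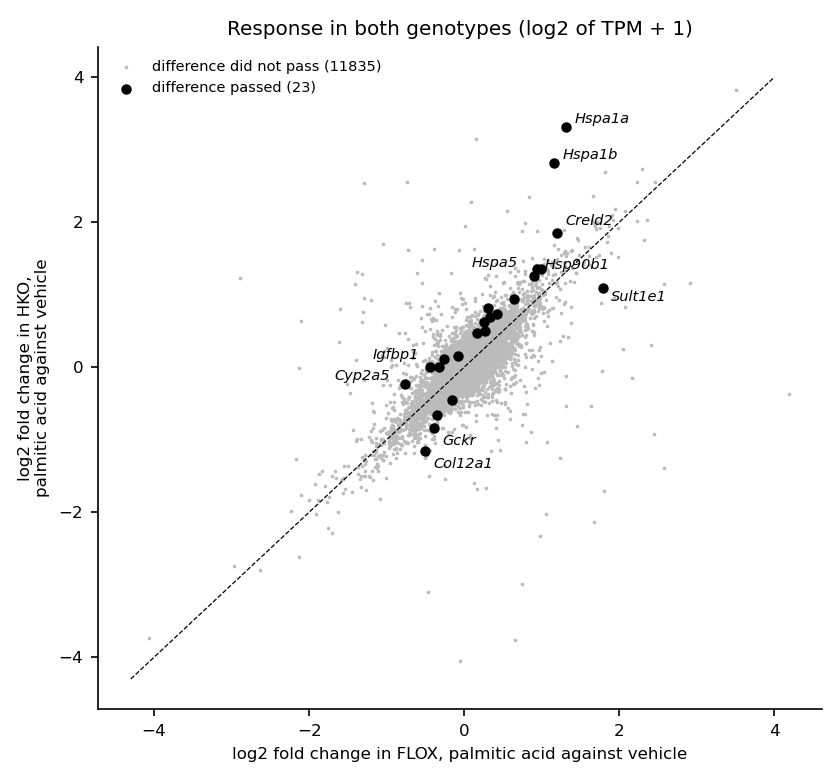
Log2 fold change of TPM + 1 with palmitic acid in FLOX (horizontal axis) and HKO hepatocytes (vertical axis) for the 11858 genes tested. Black points are the 23 genes whose difference passed at a limma adjusted p under 0.05, grey points the rest, and the dashed line marks equal change; Hspa1a and Hspa1b lie farthest above the line and Sult1e1 below it.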

How the data were processed

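Gene expression was measured by RNA-seq of a stranded total RNA library for each of 16 samples of primary mouse hepatocytes, 4 per group, of which the 8 HKO samples make up the comparison described above. The authors deposited TPM values per gene and sample, made with RSEM 1.3.3 per the submitters' processing notes. The genome build named there is a human one and cannot be that of the mouse gene identifiers. Aligner and annotation: not given in the sources used here. Read depth is lost in TPM, so neither depth nor counting error is known, and the 4 replicates per group set the precision.

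From the deposited TPM, genes with at least 1 TPM in at least 4 of the 16 samples were kept, log2(TPM + 1) was computed, and 1 limma model (version 3.58.1, R 4.3.3) with the 4 group means, a mean-variance trend and 12 residual degrees of freedom was fitted to all 11858 genes. P-values were adjusted by the Benjamini-Hochberg method over all genes, with a threshold of 0.05. The HKO response, the FLOX response and their difference are contrasts of this model. Residual spread is shared by all 4 groups. Symbols were matched for 52083 of the 55416 listed and 11803 of the 11858 tested genes. Promoter windows are from RefSeq GRCm38.p6 and were matched to 8887 tested genes; protein sequences were not used here. The fit was also run on simulated data with 200 genes changed. That is far fewer than were called here, so the run does not speak to so broad a response.

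The members and gene lists were chosen with earlier results of these data known, so lists are described by counts and medians beside those of all genes, and no set test was made. Genes were named by a rule: the 12 largest rises and falls with groups that do not overlap, up to 12 per direction that passed the test of the difference, the best known members of each list, and up to 4 further called members per list. Some genes that this rule names are not reported here. Same-numbered HKO samples deviated from their group means with correlations of -0.020, 0.086, -0.026 and 0.064. With so few samples, these values cannot settle whether the numbers pair the samples, and the main fit treats them as unpaired. Alternatives were another pseudocount, other filters, median-ratio scaling, quantile normalization, no trend, sample quality weights, the HKO samples alone, a replicate block and leaving out each sample. A fit of protein-coding genes alone and one without both FLOX samples numbered 1 were added after seeing the data.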

Additional observations from a re-analysis of the deposited data

Results flagged for a closer look

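In 19 of the 342 HKO groups of 4 examined (2 for each of 171 named genes), 1 sample lay far from the other 3, against about 1 in 20 groups by chance. HKO palmitic acid 4 was that sample in 6 groups. It was the lowest of the treated samples for Akr1c14 at 6.59 TPM, Psat1 at 74.4 TPM, Spns2 at 3.05 TPM and Id1 at 22.1 TPM, where the other 3 samples held 43.3 to 44.9 TPM of Id1. It was the highest for Cdkn1a at 203 TPM and Erfe at 13.9 TPM. In 2 groups it was HKO palmitic acid 2, the highest for Cers6 at 9.31 TPM and Cyp39a1 at 6.24 TPM.

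Among the vehicle samples, HKO vehicle 4 stood apart in 6 groups. It was the highest for Bag3 at 46.4 TPM, Derl3 at 4.38 TPM, Fdps at 777 TPM, Gdf15 at 114 TPM and Haao at 38.1 TPM, and the lowest for Manf at 65.8 TPM. HKO vehicle 1 was the lowest for Cidec at 26.4 TPM and Srebf1 at 24.9 TPM, and the highest for Gtpbp4-ps1 at 1.83 TPM. HKO vehicle 2 was the highest for Dnajb9 at 19.0 TPM, and HKO vehicle 3 for Cd68 at 68.0 TPM.

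The response to palmitic acid differed between genotypes for 23 genes by the limma test of the difference itself, given here as HKO minus FLOX on the log2 scale. The difference was 1.99 for Hspa1a and 1.65 for Hspa1b. It was 0.66 for Creld2, 0.43 for Hsp90b1, 0.36 for Hspa5 and 0.36 for Pdia4. The other chaperones were Dnajb1 at 0.31 and Hspa8 at 0.23. Among metabolic and stress genes it was 0.53 for Cyp2a5, 0.37 for Cyp2c29, 0.44 for Hmox1, 0.33 for Igfbp1, 0.29 for Cpe and 0.23 for Atf4. The differences of Ifrd1 (0.52), Trim27 (0.37), Oser1 (0.37) and Ppif (0.31) were also positive. Negative differences were -0.70 for Sult1e1, -0.66 for Col12a1, -0.46 for Gckr, -0.32 for Tmem37 and -0.30 for Fah. Ppif and Cpe lie outside the rule for naming genes and are listed because they passed.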

How the results depend on the processing

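The HKO counts of 3491 higher and 1549 lower genes became 2103 and 2369 under median-ratio scaling, which shares 3652 calls with them, and stayed within 1.5 times under the other 9 alternatives of scaling, filter, model and gene set; leaving out 1 HKO sample gave 2941 to 3452 higher and 1377 to 1495 lower genes. The difference between genotypes (18 higher, 5 lower) moved more: 5 higher under median-ratio scaling, 4 and 1 without a mean-variance trend, 29 and 11 with sample quality weights, 3 lower without a filter, and 10 and 10 without both FLOX samples numbered 1. Leaving out 1 sample gave 7 to 20 higher and 1 to 9 lower genes; the cause was not tested. Smpd3 in HKO against FLOX kept its direction and call in every setting.

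The labels repeat the same sample numbers under vehicle and palmitic acid, but do not say whether same-numbered samples belong together. A replicate block, fitted as if they did, gave 2888 and 1343 genes for the HKO response and 3 and 0 for the difference, and 2 of 4 HKO samples correlated best with their own number. Same-numbered FLOX samples, which also enter that block, correlated at -0.15, -0.075, 0.018 and 0.036. Each FLOX vehicle sample correlated better with a treated sample of another number.

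Of 156 named genes that passed in HKO cells, 149 passed in every setting and 15 of all gene and setting pairs lost the threshold. Many of these genes were named for large changes in the same fit, so this is no measure of all calls. Of the 5040 genes called in HKO cells, 3925 were also called after quantile normalization and 3652 under median-ratio scaling. Igfbp1, not called at 0.0028, was called at -0.12 under median-ratio scaling. Plin5 (-0.25), Srebf1 (-0.15) and Asah1 (-0.16) were called lower only after rescaling. Gdf15 was called higher in 6 settings, at 0.13 to 0.19. In the difference, 279 of 598 pairs of a gene and a setting lost the threshold and 0 reversed. The sources give no depth, so low genes may differ by less than their counting error.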
